A study of Mus musculus with 10 samples.

Results

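The Myc, Max and Mxd network is a set of transcription factors that share a binding partner and a DNA motif. The 10 genes described here are Myc, Mycn and Mycl (the Myc family), Max (their partner), Mxd1, Mxd3, Mxd4, Mxi1 and Mnt (repressors that also pair with Max), and Mlxipl, the glucose-responsive factor ChREBP, which pairs with Mlx. They were found by symbol and make up 10 of the 31053 genes listed in the files. The human MYC transgene that drives the tumors is not one of those genes: the files hold 1 row named Myc, the mouse gene, and no row named MYC. Whether transcripts of the transgene were also counted in the mouse row was not tested.

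The samples were 10 Visium sections of 7 mouse livers or liver tumors from the ABC-Myc model, in which albumin-driven Cre removes a stop cassette in front of human MYC in cells of the hepatocyte lineage. The model was made on C57BL/6J mice, and littermates that lacked either allele served the study as normal controls. Visium places a frozen section of 10 µm on a grid of barcoded spots, so a spot holds RNA of several cells, and fewer cells of a type and less RNA per cell cannot be told apart. NEJ146 gave 4 adjacent sections, so its mean ± SD shows the spread between sections of 1 tissue. NEJ634, NEJ638, NEJ654, NEJ677, NEJ687 and NEJ723 gave 1 section each, and their errors are exact Poisson 95% intervals that cover counting error only. The sections held 1890 to 4878 spots over tissue and 39280329 (NEJ677) to 117077925 (NEJ146 section C) unique molecular identifiers (UMIs) in those spots. The age, sex and genotype of the animal behind each section were not given in the sources used here. The labels put all tissues in 1 class, so no test between tissues was made.

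The labels call every sample hepatoblastoma, whereas the markers of that tumor split the tissues. Afp, the fetal serum protein that marks hepatoblastoma, stood at 2023 to 4248 UMIs per 1000000 UMIs (CPM) in NEJ146, NEJ634, NEJ687 and NEJ723, and at 3.79 to 9.63 CPM in NEJ638, NEJ654 and NEJ677. Igf2 and Dlk1 were at or under 0.255 CPM in the latter tissues. Of 6 hepatoblastoma markers, these 3 were at least 2-fold lower in all of NEJ638, NEJ654 and NEJ677, while H19, Gpc3 and Epcam were not, and the sum of the 6 was 12.3 to 100.3 CPM there against 3893 to 13634 CPM. The study's text names NEJ634, NEJ687, NEJ723 and NEJ146 as tumors and says that the set also held healthy livers, without their tissue names; by elimination these would be NEJ638, NEJ654 and NEJ677. The labels make no such split, so the tissues are described in order of their levels, with no group mean. NEJ146 also differed by library: its label says total RNA where the others say polyA RNA, and mitochondrial genes took 6.78% to 7.22% of its UMIs against 2.46% to 3.86% elsewhere. That difference and the tissue cannot be told apart.

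Myc and its relatives bind DNA as heterodimers with Max at the E-box, the sequence CACGTG, and recruit enzymes that open chromatin. Mxd proteins and Mnt occupy the same motif with Max and bring in Sin3 and histone deacetylases. In liver, Myc is low in resting hepatocytes and high in growing ones. Mlxipl acts in hepatocytes at a paired E-box in genes of sugar and fat metabolism.

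The E-box is printed here because members are both regulators and possible targets of the network. Promoter windows of 300 bases, 250 before and 50 after the start site, were taken from RefSeq on GRCm38.p6 for 9 of the 10 genes, with 12 windows in all; Myc had no entry. CACGTG, which reads the same on both strands, stood in a window of Max, Mxd4, Mnt and Mlxipl, and in 7.15% of all 32851 windows. The stretches below run 5′ to 3′ on the gene's strand, with the E-box in capitals.
Max, chr12:76962229-76962351, minus strand: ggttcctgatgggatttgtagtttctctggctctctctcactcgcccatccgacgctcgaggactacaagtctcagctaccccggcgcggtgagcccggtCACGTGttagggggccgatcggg
Mxd4, chr5:34187824-34187960, minus strand: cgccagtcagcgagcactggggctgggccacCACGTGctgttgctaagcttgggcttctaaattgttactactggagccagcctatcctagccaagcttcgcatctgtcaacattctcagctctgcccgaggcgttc
Mnt, chr11:74830701-74830906, plus strand: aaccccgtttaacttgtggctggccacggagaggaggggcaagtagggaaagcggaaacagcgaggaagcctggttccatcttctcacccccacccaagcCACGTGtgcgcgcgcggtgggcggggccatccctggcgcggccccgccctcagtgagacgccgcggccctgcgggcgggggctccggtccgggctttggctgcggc
Mlxipl, chr5:135089692-135089897, plus strand: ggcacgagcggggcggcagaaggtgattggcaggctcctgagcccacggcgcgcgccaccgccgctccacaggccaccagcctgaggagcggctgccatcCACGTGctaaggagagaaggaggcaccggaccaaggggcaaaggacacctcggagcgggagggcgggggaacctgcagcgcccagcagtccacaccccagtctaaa

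The E-box began 3 bases before the annotated start of Max, 98 before that of Mlxipl, 123 before that of Mnt and 219 before that of Mxd4. The variant CACGCG, searched on both strands, stood in a window of Mycl and in 9.27% of all windows. The carbohydrate response element, a pair of E-box-like sites, stood in 1 of the 3 windows of Mxi1 and in 1.09% of all windows. Max and Mnt were lower and Mxd4 and Mlxipl higher in NEJ638, NEJ654 and NEJ677 (values with each gene), so genes with an E-box in their window lay on both sides of the order.

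Myc, which drives growth and ribosome production, stood far above all other tissues in 1 tissue, NEJ638. It measured 38.98 CPM in NEJ638 (95% interval 37.3 to 40.7, 1995 UMIs). It measured 5.91 in NEJ677, 5.62 in NEJ687, 5.25 in NEJ634, 3.78 in NEJ723 and 3.04 in NEJ654. In NEJ146 it was 4.47 ± 0.473 CPM (SD, n = 4 sections). NEJ638 was thus 6.6-fold above the next tissue, and no other pair of neighbors in the order of Myc differed beyond the spread between sections. That rule covers neighbors only. The 95% intervals of Myc in NEJ677 (5.17 to 6.72) and NEJ654 (2.53 to 3.61), which are not neighbors, did not overlap. In GENCODE M21 (GRCm38) the gene lies on chromosome 15 from 61985391 to 61990374, on the plus strand.

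Neighbors in an order were called apart only where their difference in log2(CPM + 1) was over 2 times the square root of 2 times the SD between NEJ146 sections (the larger of the gene's own SD and the median SD of genes of like level) and their Poisson intervals did not overlap. By the rule of 1 tissue at least 2-fold above the next, Myc was the only member called, against 2.48% of the 12648 genes whose mean was 1 CPM or more. This and the other fold rules were applied to log2(CPM + 1), which understates the change of low genes. Of the 314 genes so called, 43 were highest in NEJ638. Among the 1394 genes highest in NEJ638, 3 had a larger gap to the next tissue than Myc.

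The high level of Myc in NEJ638 held over the whole section. Of its 3430 tissue spots, 42.1% held at least 1 Myc UMI, against 5.11% to 14.4% of spots in the other sections. At like depth per spot, NEJ687 had a UMI in 6.89% of spots (median of 12134 UMIs per spot, against 12535 in NEJ638). Myc measured 43.7 CPM in the upper left quadrant of the array (95% interval 40.0 to 47.6), 39.6 in the upper right (35.8 to 43.7), 44.2 in the lower left (40.0 to 48.6) and 33.5 in the lower right (31.0 to 36.1). The lower right quadrant had the lowest value, and its interval did not overlap that of either left quadrant. Every quadrant of NEJ638 lay above every quadrant of NEJ677, whose values ran from 5.06 to 6.43 CPM. Spots outside the tissue outline of NEJ638 held Myc too, at 39.5 CPM. These 1562 spots held 19257234 UMIs of all genes, against 51181589 UMIs in the 3430 spots over tissue. The outline thus did not separate spots with RNA from spots without, and whether RNA spread between spots was not tested.

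**Figure D1:**
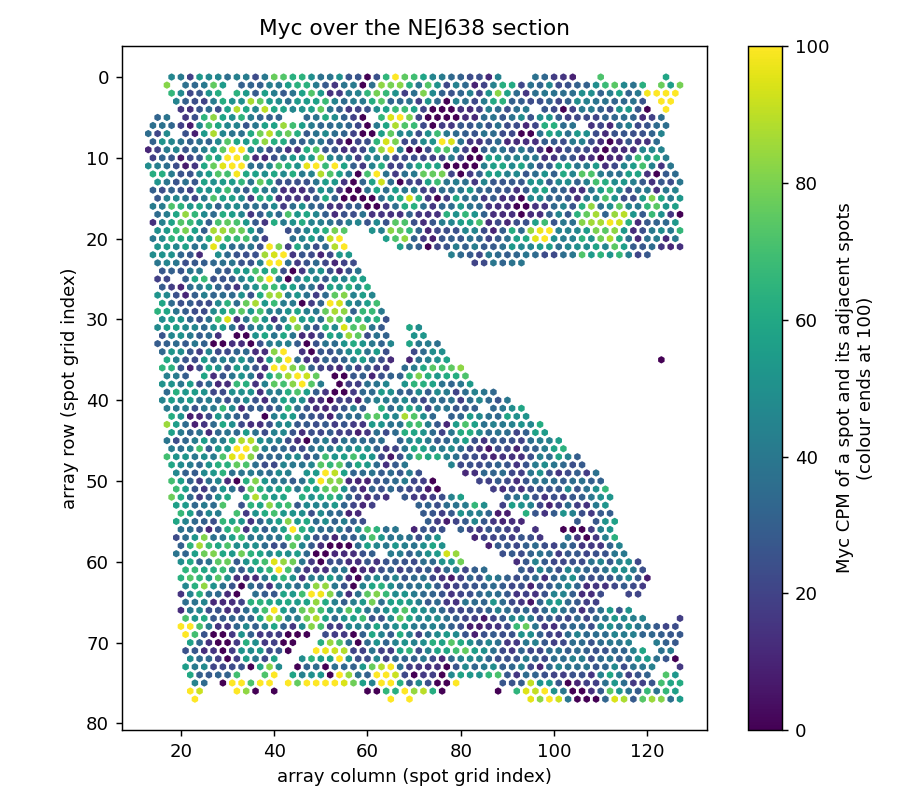
Myc over the NEJ638 section: each point is a tissue spot with at least 1000 UMIs, placed by array column and row, and its color is the CPM of Myc summed over the spot and its adjacent spots (color ends at 100). The smoothed level had a median of 38.0 CPM, with a 5th percentile of 10.5 and a 95th percentile of 83.1 CPM. Spots above and below the median lay in all parts of the section. The section held 1995 Myc UMIs in 3430 tissue spots, so each smoothed value rests on few UMIs. The part of counting error in this spread was not tested.

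The genes nearest to Myc in pattern were Coq10b, Tef and Rcan1. Their root mean square differences from Myc were 0.36, 0.42 and 0.44 on the log2 scale over 7 tissues, after each gene was centered, among 9897 genes whose mean was 5 CPM or more. Tef, a transcription factor of the circadian clock, measured 146.1 CPM in NEJ638 and 27.3 to 48.4 CPM in the other tissues. Rank and likeness here rest on 1 high tissue.

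Genes beside Myc differed in whether they shared its highest tissue. Pvt1, the long noncoding RNA next to Myc, had 0.996 CPM in NEJ638, 1.20 CPM for NEJ654 and 2.14 CPM for NEJ677, all at least 2-fold below the 5.49 to 7.28 CPM of the other tissues. Fam84b, another neighbor, was also highest in NEJ638, at 16.8 CPM, and measured 4.71 to 14.1 CPM elsewhere. Of 14 immediate early genes, which answer within minutes to growth or stress signals, 13 passed the minimum of 1 CPM and 2 had 1 tissue at least 2-fold above the next, against 2.48% of all genes. Nr4a1 measured 16.9 CPM in NEJ638 against 1.27 to 4.28 CPM elsewhere, and Egr1 measured 41.9 CPM in NEJ654 and 14.7 CPM in NEJ638. Gadd45b, with the widest range of the list, stood at 2.78 to 4.61 CPM in NEJ638, NEJ654 and NEJ677 against 37.4 to 54.5 CPM in the others, so it was low where Myc was highest. Dusp1 (42.4 CPM, next 29.4) and Zfp36 (66.9 CPM, next 51.3) were highest in NEJ638. By any gap, 2 of the 13 were higher in NEJ638, NEJ654 and NEJ677 and 5 lower, near the shares of all genes (16.3% and 42.1%). The study's methods describe perfusion of the animal with EDTA and then collagenase before the tissue was taken and frozen. The part of this handling in the levels of Myc and the immediate early genes was not tested.

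**Figure D2:**
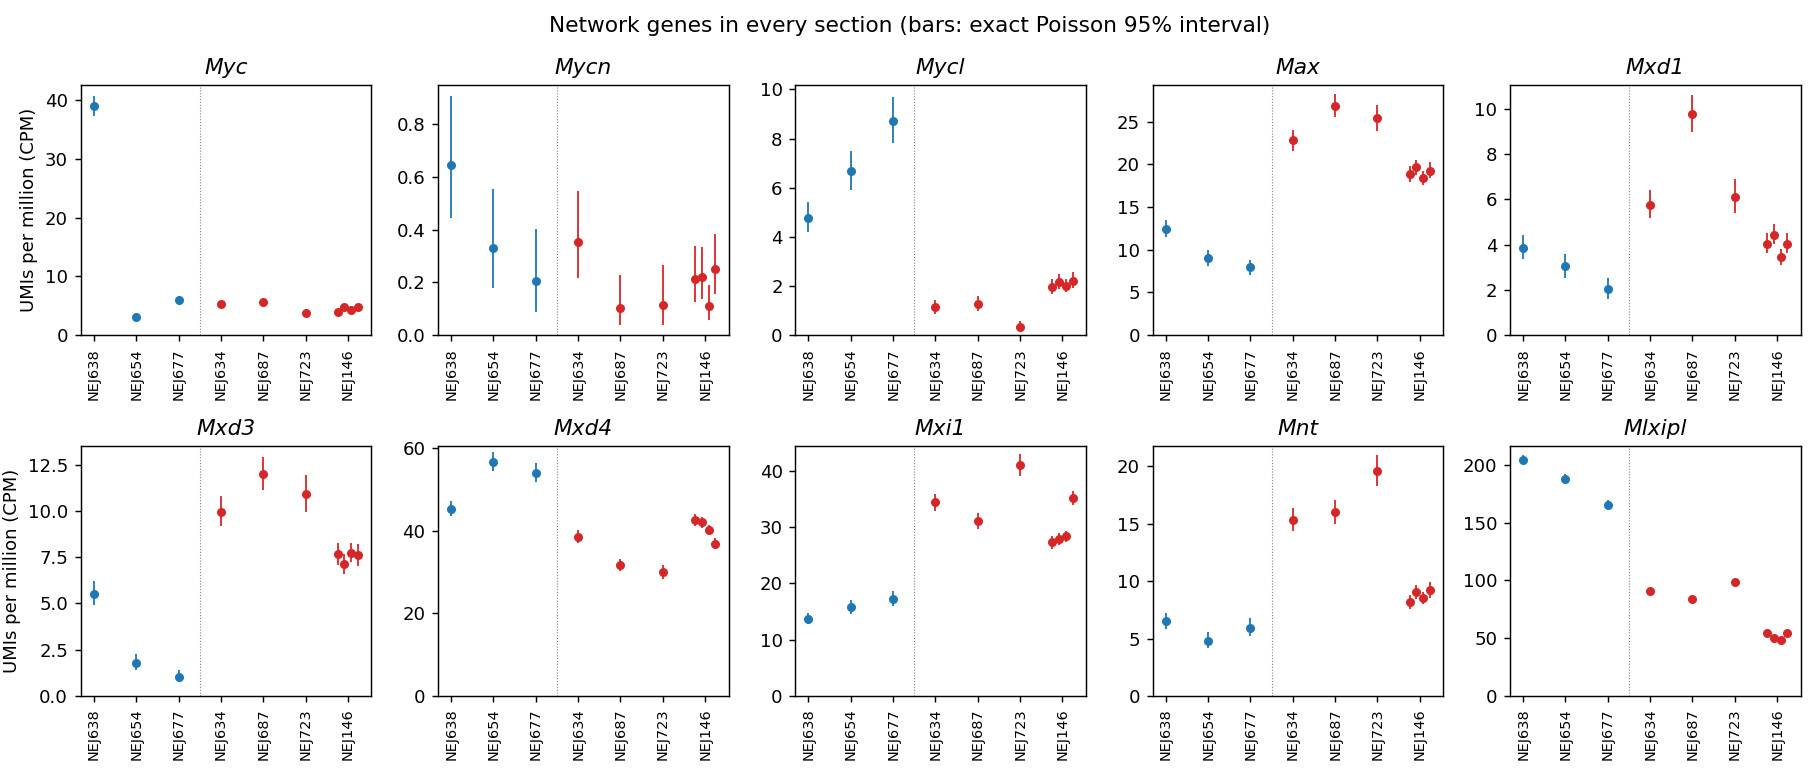
The 10 network genes in every section: the vertical axis is CPM from 0 with its own scale for each gene, points are sections, bars are exact Poisson 95% intervals, and the 4 points of NEJ146 are its adjacent sections. Myc stands at 38.98 CPM in NEJ638, whereas Mycl, Mxd4 and Mlxipl are higher and Max, Mxd3, Mxi1 and Mnt lower in NEJ638, NEJ654 and NEJ677 (blue, left of the dotted line) than in the other tissues (red). For Mxd1, NEJ146 section C (3.43 CPM) lies below NEJ638 (3.87 CPM).

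Mycl, the family member first found in lung cancer, had an order of tissues that no other member shared. It measured 8.73 CPM in NEJ677, 6.66 in NEJ654 and 4.77 in NEJ638. Levels were 1.27 in NEJ687, 1.13 in NEJ634 and 0.344 in NEJ723, and 2.08 ± 0.128 (SD, n = 4 sections) in NEJ146. All of NEJ638, NEJ654 and NEJ677 lay above the other 4 tissues, and 5 of 6 pairs of neighbors were apart. NEJ638 held the highest Myc but the lowest Mycl of these 3. Kynu, an enzyme of tryptophan breakdown, and Plin2, a lipid droplet protein, were the named genes nearest to it, at differences of 0.04 and 0.11 on the log2 scale.

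Mycn, the family member of embryonic and neural tissues, was near the limit of detection. Its 10 sections held 159 UMIs in all, and it did not pass the minimum of 1 CPM. It ran from 0.104 CPM in NEJ687 to 0.645 CPM in NEJ638, and no neighbors were apart. It is a member named for completeness, and 9 of 10 members were left for the counts that follow.

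Max, the obligate partner of Myc and of the Mxd repressors, was lower in the tissues of low Afp. It measured 12.4 CPM in NEJ638, 9.01 in NEJ654 and 7.92 in NEJ677. It measured 26.9 in NEJ687, 25.4 in NEJ723, 22.8 in NEJ634 and 19.02 ± 0.540 (SD, n = 4) in NEJ146. The sets of tissues did not overlap, and NEJ146 and NEJ638, next to each other in the order, were apart by 0.58 on the log2 scale. Mrs2, Noc3l and Yars had the nearest patterns, each within 0.06 on that scale.

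Mxd3, a repressor expressed in cells in S phase, had the widest range of the repressors. It measured 12.0 CPM in NEJ687, 10.9 in NEJ723, 9.98 in NEJ634 and 7.53 ± 0.278 (SD, n = 4) in NEJ146. It measured 5.53 in NEJ638, 1.79 in NEJ654 and 1.02 in NEJ677. The highest tissue was 11.8-fold above the lowest, and NEJ638 and NEJ654 were apart by 1.23 on the log2 scale. NEJ638 thus lay between the other tissues of low Afp and the tissues of high Afp. Ccne2 and E2f1, which act at entry into S phase, and Ppat were nearest in pattern (0.14, 0.17 and 0.17). The 16 genes of the proliferation set, such as Mki67, summed to 302 CPM in NEJ638, to 116 CPM in NEJ654, to 61.3 CPM in NEJ677 and to 933 to 1574 CPM in the other tissues. In CPM scaled by total UMIs, Mxd3 and this set were both lower in the tissues of low Afp, and NEJ146 was the lowest of the others in both. The set summed to 1574, 1377 and 1089 CPM in NEJ634, NEJ723 and NEJ687, whose levels of Mxd3 were not apart. Their part in the order of Mxd3 was not tested. Mxd3 overlaps Prelid1, which lies on the other strand.

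Mxd1, a repressor of differentiating blood and epithelial cells, was highest in NEJ687. It measured 9.77 CPM there, 6.12 in NEJ723, 5.77 in NEJ634 and 3.99 ± 0.418 (SD, n = 4) in NEJ146. It measured 3.87 in NEJ638, 3.04 in NEJ654 and 2.04 in NEJ677. NEJ687 was 1.60-fold above the next tissue and apart from it, but NEJ146 and NEJ638 were not apart. NEJ687 also held the most neutrophil transcripts, with 12 set genes such as Camp at a sum of 1360 CPM against 20.8 to 870 CPM elsewhere, and the most erythroid transcripts (542 CPM, against 45.9 to 183 CPM). Their part in the level of Mxd1 was not tested.

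Mxi1, the repressor also called Mxd2, and Mnt, a repressor expressed in most cell types, were also lower in all tissues of low Afp. Mxi1 measured 41.0 CPM in NEJ723, 34.3 in NEJ634, 31.0 in NEJ687 and 29.6 ± 3.65 (SD, n = 4) in NEJ146. It measured 17.3 in NEJ677, 15.8 in NEJ654 and 13.7 in NEJ638. Section D of NEJ146 stood apart at 35.1 CPM, and without it the mean was 27.8 CPM. The step between NEJ146 and NEJ677 was the only pair of neighbors apart, at 0.74 on the log2 scale. Mnt measured 19.6 CPM in NEJ723, 16.04 in NEJ687, 15.3 in NEJ634 and 8.74 ± 0.479 (SD, n = 4) in NEJ146. It measured 6.51 in NEJ638, 5.96 in NEJ677 and 4.82 in NEJ654. NEJ146 lay below the other tissues of high Afp by 0.75 on the log2 scale and above NEJ638 by 0.38, both beyond the spread. Ldha, which is itself on the list of Myc-activated targets, was among the 3 genes nearest to Mxi1 (0.09), and Ddx56, an RNA helicase, was nearest to Mnt (0.07).

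Mxd4 ran the other way from the other repressors. It measured 56.8 CPM in NEJ654, 54.1 in NEJ677 and 45.4 in NEJ638. It measured 38.5 in NEJ634, 31.7 in NEJ687, 29.9 in NEJ723 and 40.4 ± 2.58 (SD, n = 4) in NEJ146. NEJ146 and NEJ638 were not apart, and the whole range was 1.90-fold, the narrowest of the members that passed the minimum. Mxd4 is a repressor of resting and differentiated cells. Aamdc and Nrbf2 were nearest to it, at 0.05 and 0.06 on the log2 scale.

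Mlxipl was higher in all tissues of low Afp. It measured 204 CPM in NEJ638, 188 in NEJ654 and 165 in NEJ677. It measured 98.7 in NEJ723, 90.9 in NEJ634, 83.9 in NEJ687 and 51.8 ± 2.77 (SD, n = 4) in NEJ146. NEJ677 was apart from NEJ723 by 0.74 on the log2 scale and NEJ687 from NEJ146 by 0.68. The hepatocyte markers Alb, Cyp2e1, Cps1, Pck1, Apoa1, Ttr, Serpina1c and Cyp3a11 summed to 94939 to 126356 CPM in the tissues of low Afp and to 22987 to 30940 CPM in the others, with 7 of 8 genes higher in all 3 of them. Their part in the order of Mlxipl was not tested. Apof, a plasma apolipoprotein, and Thpo, the hormone of platelet production made in liver, were nearest in pattern (0.13 and 0.14).

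**Figure D3:**
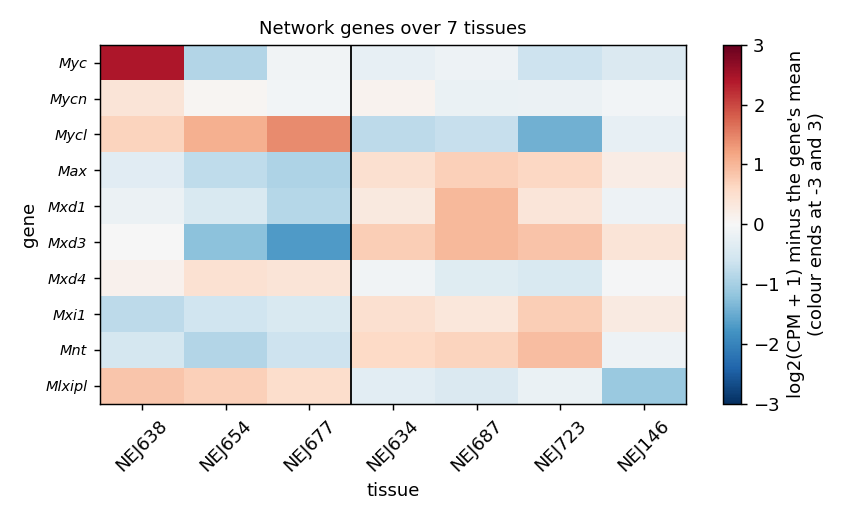
The 10 network genes over 7 tissues: each cell is log2(CPM + 1) minus the gene's mean over tissues, rows are genes and columns tissues, with the tissues of low Afp left of the line. The cell of Myc in NEJ638 is the strongest in the plot, Mycl and Mlxipl are red on the left, and Max, Mxd3 and Mxi1 are red on the right, as is Mnt except in NEJ146.

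Counted over the members, 8 of the 9 that passed the minimum had a range of at least 2-fold over the tissues, against 65.1% of all genes tested. The median range of all 10 members was 1.82 on the log2 scale, against 1.27 over all genes tested. Mycl, Mxd4 and Mlxipl placed NEJ638, NEJ654 and NEJ677 above the other 4 tissues by any gap, 3 of 9 members against 16.3% of genes. Max, Mxd1, Mxd3, Mxi1 and Mnt placed them below by any gap, 5 of 9 members against 42.1% of genes. No member had a gap of at least 2-fold in either direction, against 3.97% of genes above and 8.47% below. These shares depend on the scaling: by any gap, 29.6% of genes were above and 29.5% below with median-of-ratios size factors, and 29.1% and 30.5% with TMM factors. Size factors moved the median of all genes by -0.34 to 0.38 on the log2 scale. Under both kinds Mxd1 left the set below and Mlxipl passed the 2-fold gap above, while the other members kept their side. Of the members' levels in single tissues, 42 moved and 28 stayed with TMM factors, and 48 moved and 22 stayed with median-of-ratios factors. A level moved where it left its Poisson interval or, for NEJ146, the SD between sections. The orders, folds and neighbors called apart for each gene rest on CPM and were not redone with size factors.

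Targets of the network were counted in the same way. They were listed from general knowledge of Myc biology, and were chosen with earlier results of these data known. Of 30 Myc-activated targets, all passed the minimum, 27 were lower in NEJ638, NEJ654 and NEJ677 by any gap, and 19 by at least 2-fold, against 42.1% and 8.47% of all genes. Tfrc, the transferrin receptor, measured 439 CPM in NEJ687, 272 in NEJ146, 211 in NEJ723 and 137 in NEJ634, against 38.8 in NEJ638, 7.20 in NEJ654 and 7.18 in NEJ677. Red cell precursors also carry this receptor, and the erythroid set summed to 542, 183, 149 and 69.0 CPM in NEJ687, NEJ146, NEJ723 and NEJ634, the same order. In NEJ638, NEJ654 and NEJ677 it summed to 58.0, 45.9 and 70.1 CPM. The part of erythroid cells in the level of Tfrc was not tested. Nop56, a nucleolar protein of ribosome assembly, measured 425 CPM in NEJ723, 292 in NEJ634, 290 in NEJ687 and 174 in NEJ146, against 29.2, 13.2 and 12.1 CPM in NEJ638, NEJ654 and NEJ677. Srm, spermidine synthase, measured 289 to 432 CPM against 48.7, 18.0 and 21.8 CPM. In all 3 genes NEJ638 was the highest of the tissues of low Afp, and it was below every tissue of high Afp. This place of NEJ638 was not counted over the 30 targets or over all genes. The 30 summed to 3460, 2597 and 2923 CPM in NEJ638, NEJ654 and NEJ677. Max, Mxd3 and the proliferation set (302, 116 and 61.3 CPM) placed NEJ638 in the same way. Whether the targets follow Myc was not tested. Rcl1 ran against the list, at 142 to 203 CPM in NEJ638, NEJ654 and NEJ677 and 77.7 to 105 CPM in the others.

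Of 9 Myc-repressed targets, 8 passed the minimum, 2 were at least 2-fold higher in NEJ638, NEJ654 and NEJ677 (Cebpa and Gas1, against 3.97% of all genes) and 1 at least 2-fold lower (Cdkn1a, against 8.47%). Cebpa, a factor of hepatocyte identity, measured 176 to 187 CPM against 43.5 to 69.6 CPM. Cdkn1a, which encodes the cell cycle inhibitor p21, measured 1.5 to 5.77 CPM against 17.1 to 35.9 CPM, and Ndrg1, with the widest range of the list, measured 8.64, 56.4 and 29.3 CPM in NEJ638, NEJ654 and NEJ677 against 73.5 to 152 CPM. The list thus split in direction.

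Of 20 targets of Mlxipl and Mlxip, 18 passed the minimum, 9 were higher in NEJ638, NEJ654 and NEJ677 by any gap (16.3% of all genes), 4 by at least 2-fold (3.97%), and none lower. Thrsp, a lipogenic protein, measured 1215 CPM in NEJ638, 180 in NEJ677 and 86.3 in NEJ654, against 62.5 in NEJ634, 58.3 in NEJ146, 17.7 in NEJ687 and 3.92 in NEJ723. Pklr, liver pyruvate kinase, measured 57.3, 36.9 and 60.3 CPM in NEJ638, NEJ654 and NEJ677 against 4.92 to 14.4 CPM. Txnip and Arrdc4, targets of these factors in many tissues, were not ordered this way. Txnip, for example, measured 41.1 CPM in NEJ638, the lowest tissue, and 94.9 CPM in NEJ634, the highest.

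**Figure D4:**
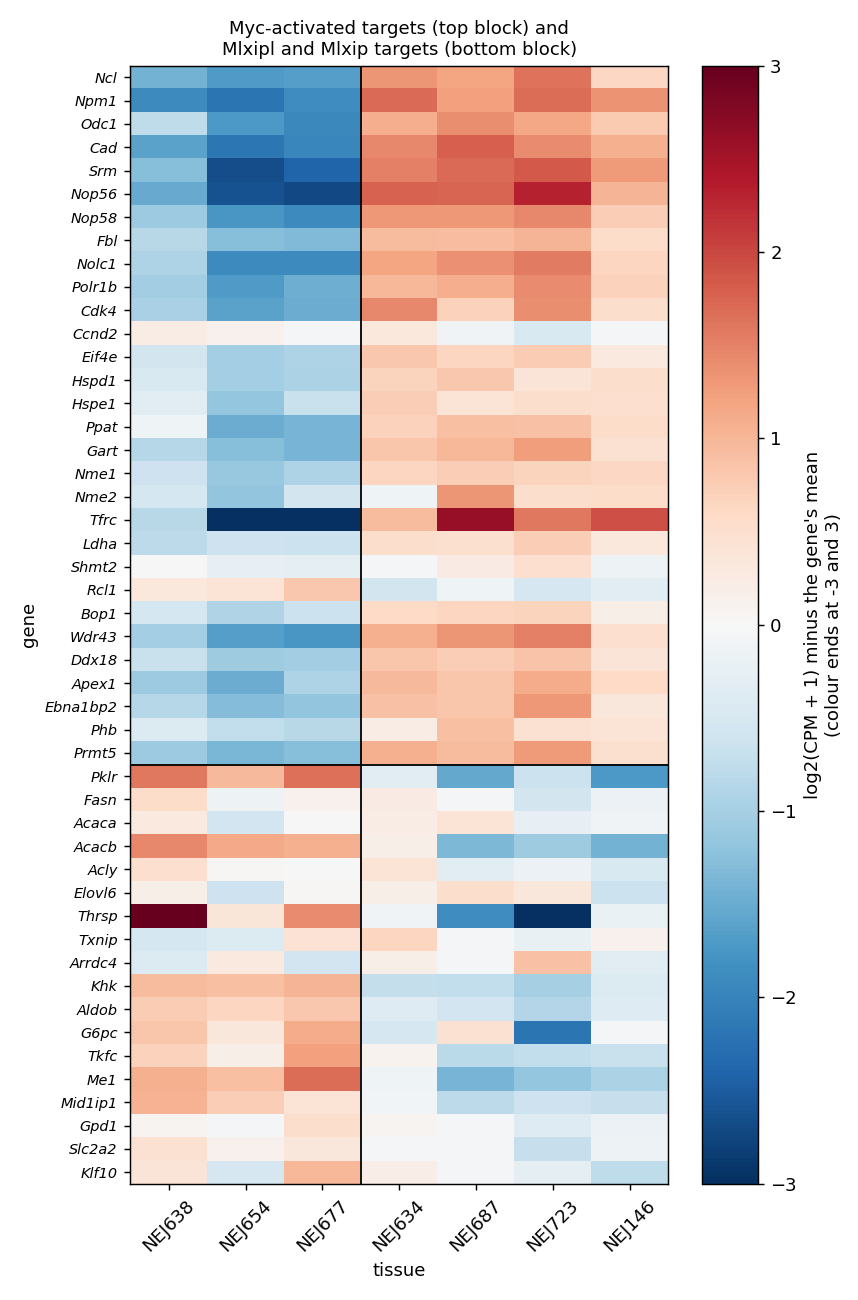
Targets of the network over 7 tissues: each cell is log2(CPM + 1) minus the gene's mean, with the 30 Myc-activated targets above the horizontal line, the 18 targets of Mlxipl and Mlxip that passed the minimum below it, and the tissues of low Afp left of the vertical line. In the top block 27 of 30 genes are lower in all 3 tissues of low Afp, while in the bottom block 9 of 18 are higher in all 3.

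Partners and cofactors of the members were read against the same shares of all genes, 42.1% lower by any gap and 8.47% by at least 2-fold. Of 13 Myc cofactors, 9 were lower in the tissues of low Afp by any gap and 3 by at least 2-fold, namely Trrap, Ruvbl1 and Ruvbl2. Ruvbl2, a chromatin ATPase, measured 13.9, 10.2 and 9.57 CPM in NEJ638, NEJ654 and NEJ677 against 44.4 to 81.3 CPM. Of 10 corepressor genes of Mxd and Mnt, 7 were lower by any gap and 1, Rbbp7, by at least 2-fold (43.8 to 56.5 against 178 to 357 CPM). Sin3a measured 9.67 to 12.8 CPM against 14.4 to 22.9 CPM. Of 11 genes of Myc protein turnover, 6 were lower by any gap and 2 by at least 2-fold, Skp2 and Aurka, a share by any gap near that of all genes. Aurka, a mitotic kinase that stabilizes Myc proteins, measured 9.32, 5.62 and 2.21 CPM against 34.6 to 59.4 CPM. Of 7 other network factors, 6 passed the minimum, 4 were lower by any gap and none higher, and Mlxip was the 1 at least 2-fold lower (2.98 to 3.15 against 7.62 to 14.3 CPM), in the opposite order to its relative Mlxipl. Mlx, the partner of both, measured 31.7 CPM in NEJ638 and 16.2 to 24.0 CPM elsewhere.

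Places within a tissue were compared next, since there the 7 tissues serve as replicates. Spots were ranked in each tissue by a marker set summed over a spot and its adjacent spots, and the UMIs of the top and bottom 25% were summed and compared with edgeR's quasi-likelihood test, with tissue as a block. The members were in none of the marker sets. No member passed an adjusted p of 0.05 in any of the 4 comparisons, of 9 members tested in each.

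Proliferation-rich spots were compared with proliferation-poor spots to ask whether the repressors and Myc follow dividing cells. No gene at all was called by edgeR: 0% of 12612 genes were higher in rich spots and 0% higher in poor spots, and DESeq2 called 24 and 11 genes, with no member among them. At an unadjusted p under 0.05, 3 of 9 members (Mycl, Mxd3 and Mlxipl) and 2006 of the 12612 genes were found by edgeR. Mycl had the largest log2 fold change in size of the 9 members, at -0.60 (SE 0.18, adjusted p from edgeR 0.243), lower in rich spots in 5 of 7 tissues. Mxd3 measured 9.99 CPM in rich against 4.48 in poor spots of NEJ146, 12.0 against 8.03 in NEJ634, 5.69 against 3.73 in NEJ638 and 11.8 against 10.3 in NEJ723. It measured 2.67 against 1.52 in NEJ654, 1.79 against 0.461 in NEJ677 and 14.8 against 9.77 in NEJ687. The mean difference in log2(CPM + 1) was 0.61 ± 0.28 (SD over 7 tissues), higher in rich spots in 7 of 7 tissues. The log2 fold change from edgeR was 0.58 (SE 0.16) with an adjusted p of 0.226, while an exact permutation test that turns the sign of each tissue's difference (two-sided) gave 0.0156, unadjusted, the smallest value 7 tissues allow. Mxi1 (0.24 ± 0.16) and Mlxipl (0.23 ± 0.14) were also higher in rich spots in 7 of 7 tissues, with the same exact p. Their log2 fold changes from edgeR, which scales libraries by TMM, were smaller, at 0.13 (SE 0.06, adjusted p 0.327) and 0.12 (SE 0.05, adjusted p 0.29). The exact test used CPM without TMM scaling, where Max had a mean difference of 0.09, against 0.0002 from edgeR. That test was run on the members only, so the share of all genes that reach 7 of 7 tissues is not known. Myc was lower in rich spots in 5 of 7 tissues, with a mean of -0.15 ± 0.43 and a log2 fold change from edgeR of -0.32 (SE 0.18, adjusted p 0.382). In NEJ638 Myc measured 41.1 CPM in both kinds of spot. Rich spots held fewer UMIs than poor spots in 5 of 7 tissues, and 12 erythroid genes tested had a median of 1.02 on the log2 scale in rich over poor spots, none of them called. Over the same spots the median was -0.77 for the pericentral set, -0.41 for hepatocyte markers, -0.36 for the periportal set and -0.38 for biliary markers, with none called, and 0.33 for hepatoblastoma markers. The part of depth and of these cell types in the differences was not tested.

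Pericentral and periportal hepatocytes are the metabolic zones of the liver lobule, and spots with the most pericentral relative to periportal transcripts (pericentral spots) were compared with those with the least (periportal spots). In NEJ638, NEJ654 and NEJ677 the periportal set summed to 2233 to 2825 CPM in the former and 7123 to 8197 CPM in the latter. In NEJ146, NEJ687 and NEJ723 it was 2199 to 3455 against 2451 to 4133 CPM, and in NEJ634 it was higher in the former, at 2648 against 2402 CPM. The periportal set thus separated the zones clearly in NEJ638, NEJ654 and NEJ677 but little or not at all in the other tissues. The pericentral set separated them in all, from 2920 against 386 CPM in NEJ146 to 199.98 against 109 CPM in NEJ723, which had the smallest ratio. Both sets were used to rank the spots, so these values describe the selection and do not test it. Over all genes, 0.207% of 12570 were higher in pericentral spots and 0.0159% in periportal spots, and no member was among them by edgeR or DESeq2, which called 285 and 86 genes. Without NEJ677, edgeR called 0 genes, with 1565 at an unadjusted p under 0.05, and without NEJ723 it called 121 and 27. Myc was the 1 of 9 members at an unadjusted p under 0.05 in edgeR, as were 1906 of all genes, and no member was so in DESeq2. The members' share was below that of all genes, so the values of Myc are given as a description. Myc was higher in pericentral spots in 6 of 7 tissues, with a mean difference of 0.24 ± 0.33 (SD over 7 tissues) in log2(CPM + 1) and an adjusted p from edgeR of 0.33. It measured 5.98 against 3.36 CPM in NEJ146 and 37.4 against 36.8 CPM in NEJ638. Mlxipl measured a mean of 0.08 ± 0.25 on that scale, higher in 4 of 7 tissues. Its differences were 0.08, 0.19 and 0.56 in NEJ638, NEJ654 and NEJ677. In NEJ146, NEJ634, NEJ723 and NEJ687 they were -0.13, -0.04, 0.03 and -0.15. Mycl (mean 0.06 ± 0.61) had differences of -0.43, -0.72 and -0.14 in NEJ638, NEJ654 and NEJ677. In NEJ146, NEJ634, NEJ723 and NEJ687 those of Mycl were 1.10, 0.59, 0.07 and -0.06. A split of the tissues was not tested. The pericentral set was 154 to 1332 CPM over whole sections of NEJ146, NEJ634, NEJ687 and NEJ723 and 6978 to 10178 CPM in NEJ638, NEJ654 and NEJ677, so the zones of the former rest on far fewer marker transcripts.

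Erythroid-rich spots were compared with erythroid-poor spots, since fetal liver holds blood-forming cells. The set held 1949, 2750, 2966 and 3903 UMIs in NEJ654, NEJ677, NEJ638 and NEJ634, so the ranks of spots there rest on few marker transcripts. It held 6483 in NEJ723, 31056 in NEJ687 and 69591 in NEJ146. Over all genes, 0.0794% of 12590 were higher in rich and 0.0238% in poor spots, with no member called by edgeR or DESeq2. Without NEJ634, NEJ723 or NEJ687, edgeR called 0 genes, with 821, 617 and 830 at an unadjusted p under 0.05. Mxd1 and Mxi1, 2 of 9 members, were at an unadjusted p under 0.05 by edgeR, as were 817 of all genes. Mxi1 was higher in rich spots in 7 of 7 tissues, by 0.19 ± 0.09 (SD over 7 tissues) in log2(CPM + 1), with an adjusted p from edgeR of 0.51 and an unadjusted exact p of 0.0156 by sign permutation. Mxd1 was higher in 5 of 7 tissues, by 0.38 ± 0.47, with an adjusted p from edgeR of 0.601. Mxd1 measured 14.9 against 7.59 CPM in NEJ687 and 6.41 against 2.91 CPM in NEJ146. Neutrophil genes were also higher in erythroid-rich spots, with a median of 0.94 on the log2 scale over 11 genes tested, although none of these was called. Megakaryocyte markers had a median of 1.5 over 4 genes tested, none called, and biliary markers one of -0.96 over 5, with Krt19 called (-1.22, adjusted p from edgeR 0.0435). The pericentral set had a median of 0.53 over 9 genes, macrophage markers 0.29 over 9 and the periportal set -0.21 over 9, none called. The part of these cell types in the values of Mxd1 and Mxi1 was not tested.

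Neutrophil-rich spots were compared with neutrophil-poor spots in the same way. The set held 813, 1400 and 2382 UMIs in NEJ677, NEJ654 and NEJ638, against 26083 (NEJ723) to 172690 (NEJ146) in the other tissues. The ranks of spots in NEJ677, NEJ654 and NEJ638 thus rest on few marker transcripts. Over all genes, 0.112% of 12525 were higher in rich spots and 0% in poor spots, and no member was called by edgeR or DESeq2. Without NEJ634, edgeR called 197 genes higher in rich and 9 in poor spots, and without NEJ687 3 and 0. Mxd1 and Mlxipl, 2 of 9 members, were at an unadjusted p under 0.05 by edgeR, as were 1220 of all genes, against 1 member and 725 genes by DESeq2. Erythroid genes had a median of 0.73 on the log2 scale over 13 genes tested, megakaryocyte markers 0.73 over 4 and biliary markers 0.70 over 5, none called. Stromal markers had a median of 0.33 over 7, macrophage markers 0.30 over 9 and hepatoblastoma markers 0.25 over 6. The pericentral set had -0.07 over 9, and again none was called. The part of these cell types was not tested. Mxd1 was higher in rich spots in 5 of 7 tissues, with a mean of 0.22 ± 0.38 (SD over 7 tissues) in log2(CPM + 1) and an adjusted p from edgeR of 0.474. Mlxipl was lower in rich spots in 6 of 7 tissues, with a mean of -0.07 ± 0.11 and an adjusted p from edgeR of 0.484. Myc measured 7.64 CPM in rich against 3.19 CPM in poor spots of NEJ634, the largest difference of Myc in any of the 7 tissues of this comparison, and 40.2 against 38.9 CPM in NEJ638.

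**Figure D5:**
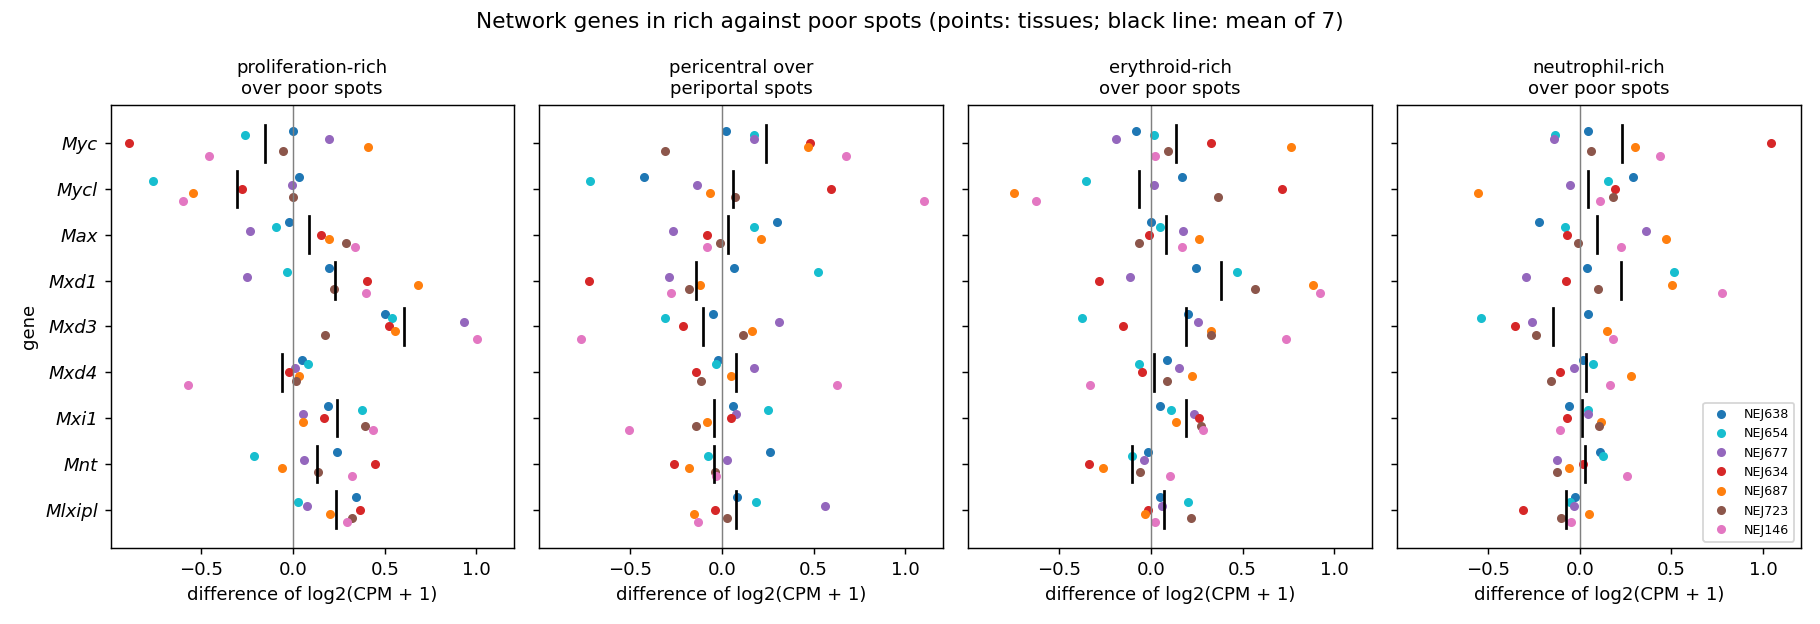
Network genes in rich against poor spots of 4 marker sets: the horizontal axis is the difference of log2(CPM + 1). Points are the 7 tissues, the black line is their mean, and Mycn is left out since edgeR did not test it. Mxd3, Mxi1 and Mlxipl lie to the right of 0 in 7 of 7 tissues in the proliferation panel, and Mxi1 does in the erythroid panel, while most other genes have tissues on both sides.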

How the data were processed

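Spatial gene expression was measured with Visium in 10 frozen liver sections of 7 tissues. The deposited matrices are unnormalized: each holds whole-number UMI counts of genes in spots, from the authors' pipeline. Per the labels' processing notes, Cell Ranger 6.0 was used for NEJ146, and Space Ranger 1.3 with mm10 for the other tissues. The members and gene lists were chosen with earlier results of these data known. Members were found by symbol, each in 1 row. Counts were summed over spots in the tissue outline of the position files. No outline was used for NEJ146, where spots with at least 8000 UMIs were taken, with positions from the shared array layout. Sums were divided by all UMIs of those spots (CPM) and compared as log2(CPM + 1), for genes whose mean was 1 CPM or more. Spot barcodes are set by the array, and 683 tissue barcodes occur in all sections by design. The fold rules also used log2(CPM + 1). Each tissue was its own group, and NEJ146 was the mean of its 4 sections.

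Within tissues, spots with at least 1000 UMIs were ranked by marker UMIs per 10000 over a spot and up to 6 adjacent spots. UMI sums of the top and bottom 25% were tested with edgeR 4.0.16 (TMM, filterByExpr, quasi-likelihood, tissue as block, Benjamini-Hochberg over all genes tested), without the genes of the ranking sets. The script was tested on simulated data whose spread was set by hand, so its power in these data was not measured. DESeq2 1.42.0 and an exact sign-flip permutation over tissues were alternatives. Sections of NEJ146 were summed to 1 library. The tissues carry separate names, but the labels do not state separate animals, so p-values measure only the spread between these tissues. For each list the genes with the widest range over tissues were named, with others named after their values were seen. Nearest genes were those with the smallest root mean square difference of centered log2(CPM + 1). Promoter windows came from RefSeq (GRCm38.p6), and gene positions and overlaps from GENCODE M21, both on the build that mm10 names. UMI counts in neighboring spots are not independent where RNA spreads between spots.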

Additional observations from a re-analysis of the deposited data

Results flagged for a closer look

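Mxi1 in NEJ146 had 1 section far from the other 3: section D measured 35.1 CPM, while sections A, B and C measured 27.3, 27.9 and 28.3 CPM. The gap was 0.860 of the range of the 4 sections, above Dixon's critical value of 0.829, which chance passes in about 1 of 20 such groups, and 10 genes were looked at. Without section D the mean of Mxi1 in NEJ146 was 27.8 CPM, still above NEJ677.

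Spots outside the tissue outline also held Myc in NEJ638. These spots entered only an alternative setting that took all spots. Myc had 761 UMIs there, at 39.5 CPM (95% interval 36.8 to 42.4), 1.01 times the level over tissue. Over the 6 tissues with an outline, the level of Myc outside it was 0.934 to 2.33 times that over tissue, and that of Mlxipl 0.570 to 0.840 times.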

How the results depend on the processing

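With no minimum gap, 3 members placed NEJ638, NEJ654 and NEJ677 above the other tissues (16.3% of all genes in the main setting). This held under all settings except a minimum mean of 10 CPM (2 members). The count below was 5, 4 with either kind of size factor or without NEJ146 section B (Mxd1 was lost), and 3 at the minimum mean of 10 CPM. Over all genes, 42.1% were below in the main setting, 29.5% with median-of-ratios factors, 30.5% with TMM factors and 41.7% without section B. At the minimum mean of 10 CPM only Max, Mxd4, Mxi1, Mnt and Mlxipl were tested, and all kept their side. Of all genes, 18.1% were then above and 44.1% below. These settings without a gap, and those without NEJ638 or NEJ146, were chosen after seeing the data. With a gap of at least 2-fold, the count above was 1 in place of 0 with median-of-ratios factors (Mlxipl; 6.01% of all genes), TMM factors (Mlxipl; 5.83%), a pseudocount of 0.5 (Mycl; 4.22%), without NEJ638 (Mycl; 4.96%) or without NEJ146 (Mycl; 4.78%). The count below was then 1 without NEJ638 (Mxd3; 12.8%) or without NEJ146 (Mnt; 13.3%). At a gap of 1.5-fold, 2 members (Mycl and Mlxipl) were above and 1 (Mxi1) below, against 901 and 2150 of the 12648 genes tested. The members with 1 tissue above the next were 2 at 1.5-fold (Myc and Mxd1; 8.61% of all genes), and 0 without NEJ638 or with the minimum mean of 10 CPM, which the 9.58 CPM of Myc misses (2.75% and 1.43%). The members with a wide range were 4 with that minimum, all those tested except Mxd4 (62.2%), and 3 at 4-fold (24.0%). Within tissues, 0 members were called by edgeR or DESeq2 under any alternative, and without any 1 tissue the count was 0 to 0. The lowest adjusted p over those fits was 0.148. The sign-flip test alone passed 0.05, unadjusted, for 4 of 36 values of the 9 members that edgeR tested. Mycn, which edgeR did not test, is not in these 36. Its sign-flip p was 0.0469, unadjusted, in the erythroid comparison, with 6 of 7 tissues higher in rich spots. The sign-flip test used CPM without TMM scaling and was run on the members only, so no share of all genes stands beside these values. Between tissues, no paired analysis was possible because 6 of 7 have 1 section, and what the letter of a section marks is not stated; the comparisons within tissues are paired by tissue. Depth limits Mycn, with 159 UMIs in all.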
